A study of Mus musculus with 4 samples.

Results

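Genes with roles in the storage and release of fat (Adipoq, Plin1, Plin4, Cidec, Pnpla2, Lipe, Lpl, Fasn, Acaca and Pparg) were followed in nuclei of wounded and intact mouse back skin. They were chosen by gene symbol and found in every library, 10 of the 32285 genes listed. The wounded libraries came from 2 wild-type C57BL/6 mice aged 8 weeks, whose back skin had been excised through its full depth and was collected 1 day later. The unwounded libraries came from intact back skin of 2 other wild-type C57BL/6 mice of that age. Each mouse gave 1 library of single nuclei, in which every captured RNA molecule carries an identifier (UMI) and every nucleus a barcode. The skin was labelled as mixed cells, so a library holds fat, muscle, epidermis and dermis together. The comparison asked how these genes differ in skin on the first day of repair.

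After filtering, the wounded libraries held 2297 and 3706 nuclei with 1189262 and 1350822 UMIs, and the unwounded libraries 6575 and 9001 nuclei with 8275090 and 6475744 UMIs. The wounded libraries stood apart from the unwounded ones. Malat1, a nuclear non-coding RNA, made up 0.120% and 0.294% of wounded UMIs, against 9.39% and 8.26% of unwounded UMIs. No Malat1 UMI was found in 74.8% and 60.7% of the kept wounded barcodes, against 0% in each unwounded library. Kept barcodes of every library are called nuclei here, with or without Malat1. The 1466 olfactory and vomeronasal receptor genes, which serve the nose, had 0.550 and 0.510 counts per 1000000 UMIs (CPM) per kilobase of gene in wounded libraries, against 0.00738 and 0.0103 in unwounded libraries. That density times a gene's length gives its length-expected CPM, and wounded values are also given as observed over length-expected. A set called nearly silent here held 2338 protein-coding genes of at least 5 kb with at most 3 counts in intact skin. In that set this ratio had a median of 0.930 and 0.954 and a 99th percentile of 5.27 and 5.40 in wounded replicates 1 and 2. Wounding and this difference in library make-up cannot be told apart, since each wounded library carries both.

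Fat cells keep triglyceride in a lipid droplet whose coat of perilipins controls access of lipases. Lipases release fatty acids when energy is needed, and synthesis and uptake refill the droplet. Pparg, a nuclear receptor, drives the formation of fat cells and the use of their lipid genes, and skin holds a layer of such cells under the dermis. Sebaceous glands of the skin also make fat, which they secrete as sebum. Promoter sequence from RefSeq (GRCm38.p6) was held for 9 of the 10 genes. The 250 bases before the RefSeq start site are shown for the 2 genes of largest fall, Fasn and Plin4, and for Adipoq, which did not pass the test. Capitals mark matches, on either strand, to any of 6 motifs: the CCAAT box (CCAAT), the GC box (GGGCGG), the E-box (CACGTG), the TATA box (TATAAA), the nuclear receptor element (AGGTCA) and its direct repeat (AGGTCANAGGTCA), which contains that element. The windows lie at chr11:120824548-120824797 (minus strand) for Fasn, chr17:56109783-56110032 (minus) for Plin4 and chr16:23146286-23146535 (plus) for Adipoq, each printed 5′ to 3′ along its gene.
Fasn: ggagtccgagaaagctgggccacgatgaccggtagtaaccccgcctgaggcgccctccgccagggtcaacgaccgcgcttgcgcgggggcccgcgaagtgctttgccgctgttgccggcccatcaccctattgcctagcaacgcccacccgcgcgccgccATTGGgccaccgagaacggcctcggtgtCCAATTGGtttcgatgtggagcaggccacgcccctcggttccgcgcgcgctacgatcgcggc
Plin4: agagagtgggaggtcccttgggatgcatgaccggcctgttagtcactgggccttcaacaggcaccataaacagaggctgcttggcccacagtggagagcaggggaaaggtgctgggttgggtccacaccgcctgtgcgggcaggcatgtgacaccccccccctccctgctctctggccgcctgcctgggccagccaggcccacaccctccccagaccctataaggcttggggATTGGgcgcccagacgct
Adipoq: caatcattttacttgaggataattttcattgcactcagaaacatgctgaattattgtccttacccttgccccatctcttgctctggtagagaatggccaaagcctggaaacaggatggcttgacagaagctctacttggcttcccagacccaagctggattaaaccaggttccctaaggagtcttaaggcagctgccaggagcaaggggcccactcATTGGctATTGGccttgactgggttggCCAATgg
The Fasn and Adipoq windows each held 3 matches to CCAAT and the Plin4 window held 1, while 33.8% of all 32851 promoter windows of this length held at least 1. The Plin4 match lies inside the gene span given below, since that span and the window come from different annotations. GC content was 69.2% for Fasn, 65.2% for Plin4 and 48.8% for Adipoq. The CCAAT box was in windows of 4 of the 9 genes, and none of the other motifs was found in these 3 windows. The direct repeat, a site that Pparg binds with its partner receptor, was in no window of the 9 genes and in 0.0335% of all windows. The nuclear receptor element was in 1 of the 9 genes (14.0% of all windows), the GC box in 3 (32.7%), the E-box in 1 (6.02%) and the TATA box in 1 (12.4%).

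Summed over all nuclei of a library, 9 of the 10 genes fell after wounding and Adipoq did not pass the test. Counts were fitted with edgeR's quasi-likelihood test, scaled with TMM factors, and a call means a Benjamini-Hochberg adjusted p below 0.05 over all 20930 genes tested. In that fit 84.2% of all genes were called, so the direction is the part to read: 37.3% of all genes fell and 46.9% rose. The median log2 fold change (wounded over unwounded) was -1.27 over the 10 genes and 0.39 over all genes. TMM places fitted fold changes below the ratio of CPM, so CPM or counts are given beside them. On CPM, wounded values lay below both unwounded values for 6 genes, above both for Adipoq and Acaca, and overlapped them for Lipe and Lpl. All 10 genes passed the filter on low counts, Plin4, Pnpla2 and Fasn only through their unwounded counts. A fall was therefore the only call open to Plin4, Pnpla2 and Fasn. Fewer cells of a type and less RNA per cell cannot be told apart in such sums.

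**Figure D1:**
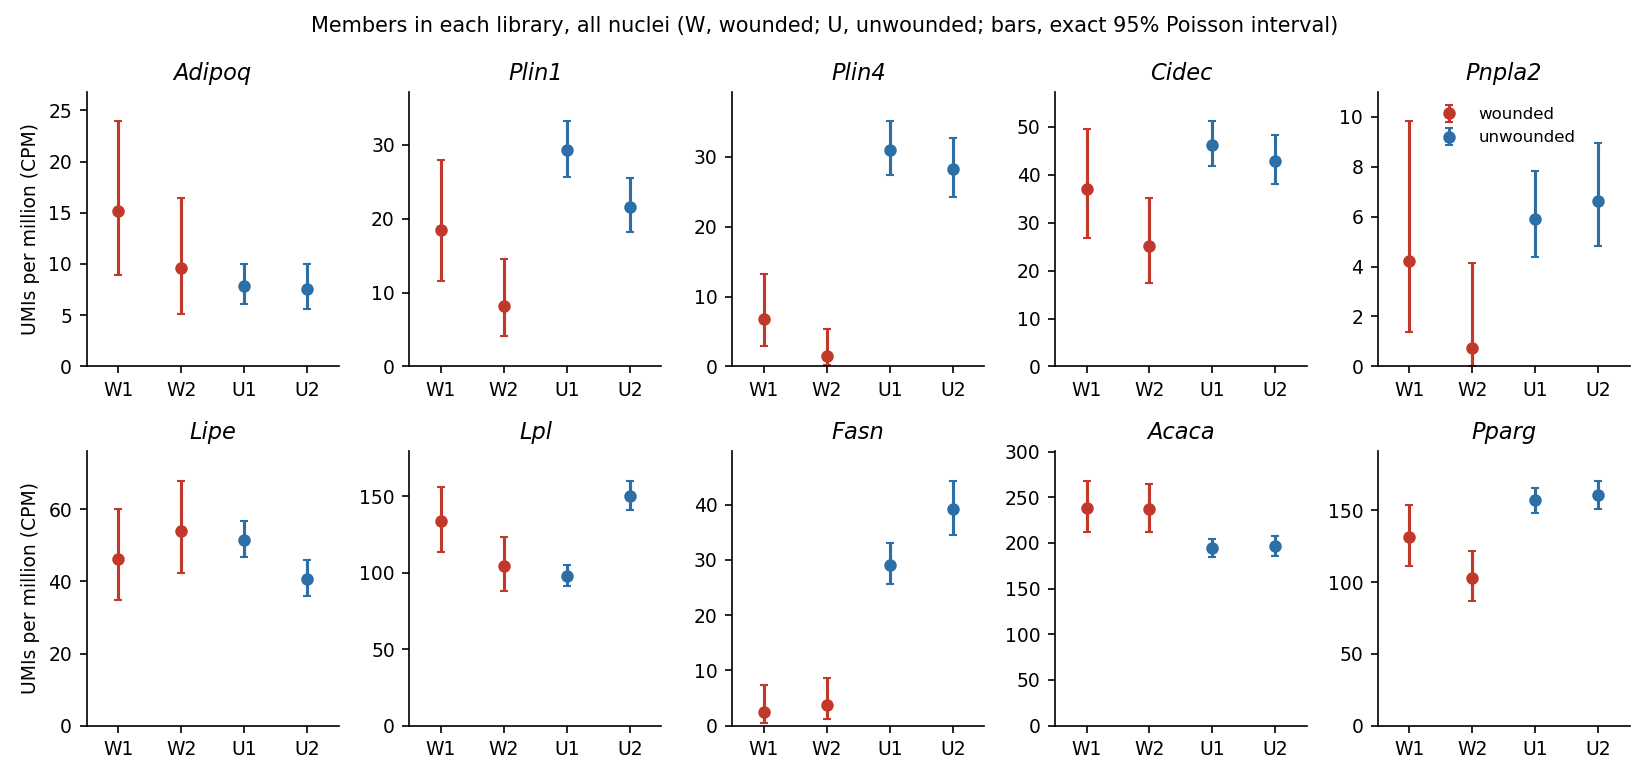
CPM of each of the 10 genes in wounded replicates 1 and 2 (W1, W2, red) and unwounded replicates 1 and 2 (U1, U2, blue), all nuclei, with exact 95% Poisson intervals as bars. Fasn and Plin4 lie lowest relative to unwounded skin, at 2.52 and 3.70 CPM and at 6.73 and 1.48 CPM in wounds, while Acaca lies higher in wounds at 239 and 237 CPM.

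Of Plin1, Plin4 and Cidec, the lipid droplet genes among the 10, Plin4 fell most. Plin4 (ENSMUSG00000002831; GRCm38 chromosome 17, 56100591 to 56109803), a perilipin of the droplet coat, had 6.73 and 1.48 CPM in wounds from 8 and 2 counts, against 31.1 and 28.3 CPM in unwounded skin. Both wounded libraries lay far below both unwounded ones. Its log2 fold change was -3.68 ± 0.40 (SE; edgeR, adjusted p = 9.53e-06), and -4.89 and -2.73 without wounded replicates 1 and 2. Plin1 (ENSMUSG00000030546; chromosome 7, 79720218 to 79732903), the main coat protein of fat cell droplets and a gate for lipases, had 18.5 and 8.14 CPM in wounds, against 29.2 and 21.6 CPM in unwounded skin. The wounded libraries were lower without overlap, and differed from each other by more than the unwounded ones did. The log2 fold change of Plin1 was -1.74 ± 0.33 (edgeR, adjusted p = 0.000541), with -2.24 and -1.06 without wounded replicates 1 and 2, and was not called after subtraction of length-expected counts (-1.19, adjusted p = 0.158). Cidec (ENSMUSG00000030278; chromosome 6, 113424634 to 113435760), which promotes droplet fusion into a single large droplet, had 37.0 and 25.2 CPM in wounds, against 46.3 and 42.9 CPM in unwounded skin. Its log2 fold change was -1.32 ± 0.21 (edgeR, adjusted p = 0.000166) and -0.86 without wounded replicate 2. The call on Cidec was lost after subtraction of length-expected counts (log2 fold change -0.035, adjusted p = 0.924), in barcodes with a Malat1 UMI (-0.70, adjusted p = 0.0838) and after thinning to the smallest library (-0.51, adjusted p = 0.0754).

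The lipases moved less on CPM, apart from Pnpla2. Pnpla2 (ENSMUSG00000025509; chromosome 7, 141455198 to 141460743), the adipose triglyceride lipase that opens triglyceride breakdown, had 5 and 1 counts in wounds (4.20 and 0.740 CPM), against 49 and 43 counts in unwounded skin (5.92 and 6.64 CPM). Summed by group, the CPM ratio of wounded to unwounded was 0.379 (95% interval 0.135 to 0.856, counting error only). The fitted log2 fold change of Pnpla2 was -2.17 ± 0.60 (edgeR, adjusted p = 0.00598), with -3.62 without wounded replicate 1, but the call was lost without wounded replicate 2 (-1.16, adjusted p = 0.159) and in DESeq2 (adjusted p = 0.0845) and with at least 400 genes per nucleus (adjusted p = 0.0776). Lipe (ENSMUSG00000003123; chromosome 7, 25379527 to 25398710), the hormone-sensitive lipase, had 46.2 and 54.0 CPM in wounds, against 51.6 and 40.8 CPM in unwounded skin. The groups overlapped. Relative to TMM scaling Lipe was called lower (log2 fold change -0.66 ± 0.19, edgeR, adjusted p = 0.00671), a call lost with RLE factors (-0.42, adjusted p = 0.0563), without wounded replicate 1 (-0.37, adjusted p = 0.204) and without wounded replicate 2 (-0.59, adjusted p = 0.0504), and of opposite sign after subtraction of length-expected counts (0.59, adjusted p = 0.0700). DESeq2 (adjusted p = 0.185), barcodes with a Malat1 UMI (0.246) and thinning (0.554) also gave no call on Lipe. Lpl (ENSMUSG00000015568; chromosome 8, 68880491 to 68907448), which splits triglyceride carried in blood so that tissue can take up the fatty acids, had 134 and 104 CPM in wounds, against 97.9 and 150.4 CPM in unwounded skin. Here too the groups overlapped, with the unwounded libraries furthest apart. Lpl was called lower at a log2 fold change of -0.86 ± 0.23 (edgeR, adjusted p = 0.00487), with -1.21 and -0.51 without unwounded replicates 1 and 2, -0.48 without wounded replicate 2, and 0.54 (adjusted p = 0.155) after subtraction. All deposited barcodes (adjusted p = 0.0709), thinning (0.153) and barcodes with a Malat1 UMI (0.473) gave no call on Lpl.

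Among the genes of fatty acid synthesis, Fasn showed the largest fall of the 10. Fasn (ENSMUSG00000025153; chromosome 11, 120805846 to 120824547), the fatty acid synthase, had 3 and 5 counts in wounds (2.52 and 3.70 CPM), against 241 and 254 counts in unwounded skin (29.1 and 39.2 CPM). Its CPM ratio over the summed groups was 0.0939 (95% interval 0.0403 to 0.186, counting error only). The fitted log2 fold change was -4.21 ± 0.39 (edgeR, adjusted p = 2.89e-06), and Fasn fell in all 14 alternative fits. A fall was the only call open to Fasn in the reported fit. Acaca (ENSMUSG00000020532; chromosome 11, 84129672 to 84401651), the acetyl-CoA carboxylase that supplies Fasn with malonyl-CoA, had 239 and 237 CPM in wounds, against 194 and 197 CPM in unwounded skin. Both wounded values lay above both unwounded ones, whereas the TMM fit put Acaca lower, at a log2 fold change of -0.51 ± 0.13 (edgeR, adjusted p = 0.00335). That call was lost with RLE factors (-0.26, adjusted p = 0.0726), without wounded replicate 1 (-0.32, adjusted p = 0.137) and without wounded replicate 2 (-0.30, adjusted p = 0.161), and its sign turned after thinning (0.12, adjusted p = 0.475). DESeq2 (adjusted p = 0.157) and subtraction (0.265) also gave no call. Acaca spans 272 kb, the longest of the 10 genes, and in wounds it stood at 1.60 and 1.71 times its length-expected CPM.

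Pparg and Adipoq, the regulator and a hormone of fat cells, differed. Pparg (ENSMUSG00000000440; chromosome 6, 115360951 to 115490399) had 131 and 103 CPM in wounds, against 157 and 161 CPM in unwounded skin. No wounded library reached an unwounded one, the log2 fold change was -1.23 ± 0.15 (edgeR, adjusted p = 2.34e-05), and the call held in all 14 alternative fits. Adipoq (ENSMUSG00000022878; chromosome 16, 23146536 to 23158028), which encodes the secreted hormone adiponectin, had 15.1 and 9.62 CPM in wounds from 18 and 13 counts, against 7.85 and 7.57 CPM in unwounded skin from 65 and 49 counts. The wounded values lay above the unwounded ones on CPM, while the fitted log2 fold change was -0.12 ± 0.35 (edgeR, adjusted p = 0.761), 0.12 with RLE factors and 0.38 without wounded replicate 2. Only Plin4, Fasn and Pparg fell in each of 14 alternative fits. For Plin4 and Fasn, a fall was the only call open in the reported fit.

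Against gene length, few of the 10 genes stood out in wounds. Lpl, at 9.01 and 7.60 observed over length-expected, was the 1 gene of the 10 whose ratio passed the 99th percentile of the silent set in wounded replicate 1 and in wounded replicate 2. Cidec followed at 6.04 and 4.44 and Lipe at 4.38 and 5.53, each above that percentile in 1 library. Adipoq had 2.39 and 1.64, Plin1 2.65 and 1.26, and Pparg 1.84 and 1.56. Plin4 stood at 1.33 and 0.315, and Pnpla2 at 1.38 and 0.262. Fasn was below its length-expected level in both wounded libraries, at 0.245 (95% interval 0.0506 to 0.716) and 0.388 (0.126 to 0.906). In unwounded libraries all 10 genes were far higher on this ratio, from 63.7 for Adipoq to 563 for Cidec. The receptor-gene density it divides by was 0.00738 and 0.0103 CPM per kb there, against 0.550 and 0.510 in wounds. Acaca and Adipoq, higher in wounds on CPM, were thus also lower in wounds on this ratio. Between the groups the ratio follows that density as well as the genes. Of the 10 genes, 4 share their span with a gene on the other strand; no source used here says whether counting was strand-specific. The partner of Lipe, 4732471J01Rik, had 116 and 115 CPM in wounds, against 45.1 and 45.4 CPM in unwounded skin. Gm11437, inside Acaca, had 86.6 and 84.4 CPM in wounds, against 8.22 and 8.65 CPM in unwounded skin. The other partners were Hdgfl2 for Plin4 and Gm44079 for Pparg, and the part of any of them in these values was not tested.

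**Figure D2:**
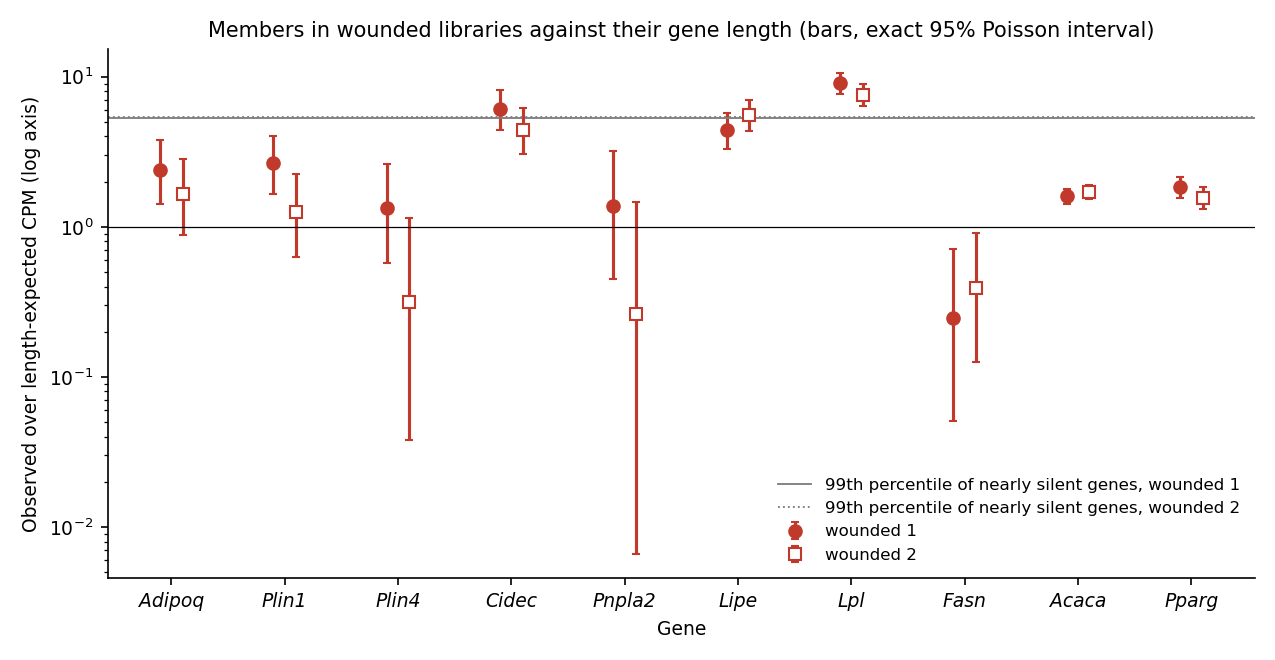
Observed over length-expected CPM (log axis) of the 10 genes in wounded replicates 1 (filled circles) and 2 (open squares), with exact 95% Poisson intervals; the horizontal grey lines mark the 99th percentile of the silent set and the black line a ratio of 1. Lpl lies above the percentile in both libraries and Fasn below 1 in both.

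In intact skin the genes were read by cluster of nuclei, clustered without the 10 genes and without the pathway genes below. An adipocyte-like cluster (cluster 8), in which 14 of 15 adipocyte markers were raised, held 214 of 6575 and 348 of 9001 unwounded nuclei. In wounds it held 2 of 2297 and 1 of 3706 nuclei. As shares this was 0.0871% (exact 95% interval 0.0105 to 0.314) and 0.0270% (0.000683 to 0.150) of wounded nuclei, against 3.25% (2.84 to 3.71) and 3.87% (3.48 to 4.29) of unwounded nuclei. Barcodes without a Malat1 UMI made up 74.8% and 60.7% of these wounded denominators and none of the unwounded ones. The 3 wounded barcodes had 252 to 318 UMIs, with 2 or 3 of the 15 markers and 1 or 2 UMIs of the 10 genes. With 2 libraries in each group the smallest p of an exact permutation test is 0.3333, so the shares are given without a test. Most wounded nuclei joined clusters that held almost no unwounded nuclei, so the share also follows the difference in library make-up, whose part in it was not tested. The 15 adipocyte markers summed to 860 and 802 CPM in wounds, with Cfd at 0 in both libraries, against 3402 and 3034 CPM in unwounded skin. Most of that difference lay in the marker Ghr, at 333 and 300 CPM in wounds, against 2814 and 2489 CPM in unwounded skin. Tshr, Aqp7 and Dgat2 were higher in both wounded libraries, with Tshr at 151 and 146 CPM, against 35.0 and 39.4 CPM in unwounded skin.

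Per kilobase of gene span, Cidec was the highest of the 10 genes in adipocyte-like nuclei of unwounded skin, at 98.1 and 66.1 CPM per kb. Plin1 followed with 47.7 and 26.8, Lipe with 42.6 and 16.6, and Plin4 with 36.4 and 21.5. Lpl had 17.1 and 23.0, Adipoq 11.02 and 8.61, and Pparg 8.37 and 8.47 CPM per kb. At the low end were Fasn with 3.28 and 8.05, Pnpla2 with 5.16 and 2.33, and Acaca with 1.98 and 2.20. Cidec lay above the next gene without overlap, and Acaca lay below all others. Plin1, Lipe, Plin4 and Lpl overlapped as neighbours in this order, as did Fasn and Pnpla2. Pnpla2 rested on 7 and 3 counts. The order depends on the division by gene span. On CPM, Pparg had 1083 and 1096, Cidec 1091 and 735, Acaca 539 and 598, and Plin1 605 and 340. The cluster was the highest of 14 for 8 of the 10 genes and shared the top for Fasn and Pnpla2.

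**Figure D3:**
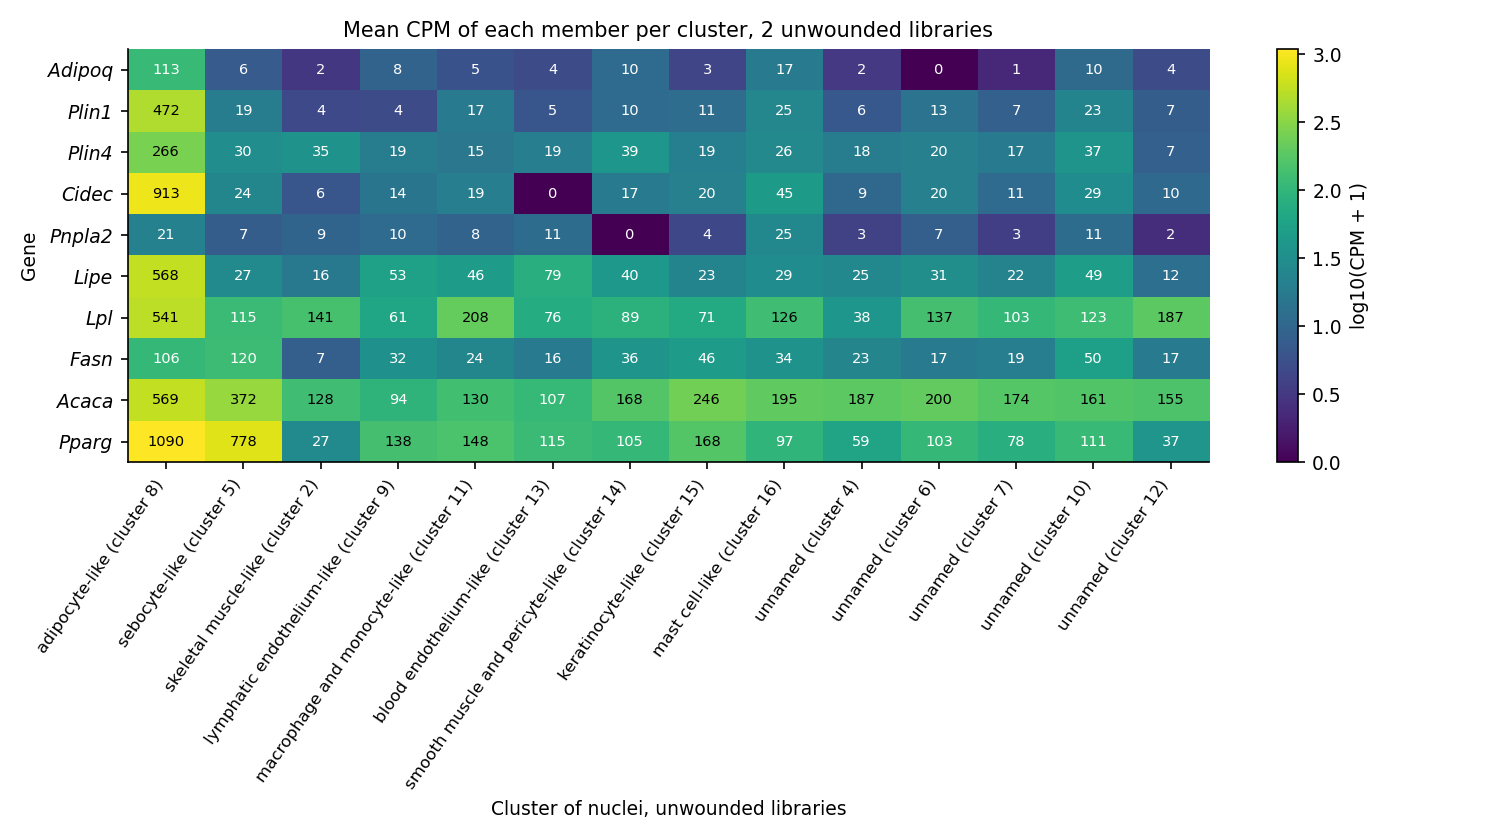
Mean CPM (numbers; colour as log10 of CPM + 1) of the 10 genes in each cluster of unwounded nuclei, as the mean of 2 libraries. The adipocyte-like column is the highest for 8 of 10 genes, and the sebocyte-like column stands out for Pparg, Acaca and Fasn.

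The 10 genes split by how far they were confined to those nuclei. Adipocyte-like nuclei held 2.96% and 3.59% of the UMIs of unwounded replicates 1 and 2. They held 69.7% and 61.5% of Cidec UMIs, 61.2% and 56.4% of Plin1 UMIs, and 47.7% and 46.9% of Adipoq UMIs. Lipe had 46.8% and 28.0% there, and Plin4 31.9% and 25.1%. Shares were lower for Pparg (20.4% and 24.5%), Lpl (14.0% and 14.8%), Pnpla2 (14.3% and 6.98%), Fasn (6.22% and 13.8%) and Acaca (8.20% and 10.9%). Sebocyte-like nuclei (cluster 5) had 529 and 1027 CPM of Pparg in the lower and the higher library, and their Acaca lay between 351 and 394 CPM. For Fasn they had 81.4 to 158 CPM, which overlapped the 61.3 to 150.5 CPM of adipocyte-like nuclei. Lpl was next highest in macrophage and monocyte-like nuclei at 161 to 254 CPM and in an unnamed cluster led by Spag17 at 155 to 219 CPM. Lipe stood at 76.6 to 81.0 CPM in blood endothelium-like nuclei, next after the adipocyte-like ones. In blood endothelium-like nuclei Cidec was at 0 in both libraries.

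**Figure D4:**
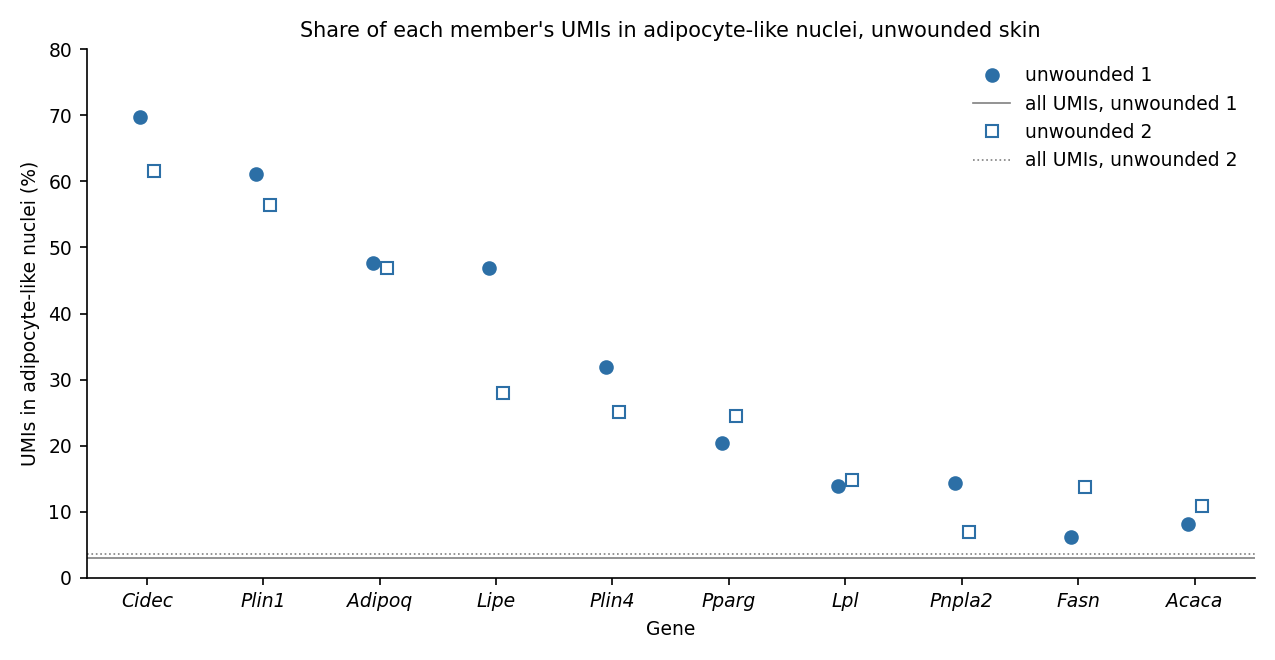
Share (%) of the UMIs of each gene that lay in adipocyte-like nuclei, in unwounded replicates 1 (filled circles) and 2 (open squares); grey lines give the share of all UMIs. Cidec and Plin1 have most of their UMIs there in both libraries, at 56.4% to 69.7%, and Acaca 8.20% and 10.9%.

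Within single nuclei the genes were detected together at a higher rate in the adipocyte-like cluster. At least 3 of the 10 were found in 46.7% and 29.0% of adipocyte-like nuclei, against 1.79% and 0.797% of other unwounded nuclei, at median depths of 857 and 460 against 908 and 470 UMIs. With every nucleus thinned to 200 UMIs, Cidec was found in 14.5% and 10.9% of adipocyte-like nuclei (42.1% and 26.4% before thinning) and in 0.231% and 0.607% of keratinocyte-like nuclei (2.31% and 1.06%), a type that should lack it. Thinned in the same way, 0.653% and 0.675% of wounded nuclei held a Cidec UMI (1.57% and 0.917% before thinning). Over 28 sums of cluster and library in unwounded skin, Sik2 had the profile most like the mean of the 10 genes (Pearson r = 0.893), followed by Retn, Gm10851, Slc27a1 and Ces1f. For Adipoq the most similar profiles were those of Klb (r = 0.778), Slc22a3, Gm16168 and Mrap. These correlations describe 14 clusters that share 2 libraries, and were taken over 12267 genes.

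The fit was repeated without the adipocyte-like nuclei, 214 and 348 in unwounded and 2 and 1 in wounded replicates 1 and 2. In that fit 6 of 10 genes fell and 4 were not called, where 36.7% of all 20896 genes tested fell, 47.6% rose and 84.4% were called, and the median log2 fold change was 0.45 over all genes. Fasn (-4.04 ± 0.36), Plin4 (-3.19 ± 0.42) and Pparg (-0.87 ± 0.15) fell with edgeR adjusted p = 3e-07, 9.99e-06 and 0.00014. Pnpla2 (-2.01), Lpl (-0.64) and Acaca (-0.36) fell with adjusted p = 0.00755, 0.0105 and 0.0223, but lost the call without wounded replicate 2 (adjusted p = 0.223, 0.173 and 0.358). Lpl and Acaca also lost it with RLE factors (adjusted p = 0.0686 and 0.242), and Acaca without wounded replicate 1 (adjusted p = 0.319). Cidec (log2 fold change 0.23, adjusted p = 0.414), Lipe (0.04, adjusted p = 0.857), Plin1 (-0.46, adjusted p = 0.254) and Adipoq (0.80, adjusted p = 0.0735) were not called, and Adipoq was called higher with RLE factors (1.00, adjusted p = 0.0337). The 4 genes not called are those with the largest shares of UMIs in adipocyte-like nuclei of both unwounded libraries. Leaving those nuclei out took counts almost only from unwounded libraries, so genes with larger shares there had to move further upwards. That match is therefore no separate result. Adipoq was not called over all nuclei either (edgeR, adjusted p = 0.761). In unwounded skin outside those nuclei, Cidec had 14.4 and 17.1 CPM and Plin1 11.7 and 9.77 CPM, whereas Fasn kept 28.1 and 35.1 CPM. With sebocyte-like nuclei also left out, an alternative added after seeing the data, Fasn (-3.82), Plin4 (-3.20) and Pparg (-0.40, adjusted p = 0.0359) still fell. Over all nuclei a fall was the only call open to Fasn and Plin4. Whether a gene's fall differed between nuclei in and outside the adipocyte-like cluster could not be tested, since the wounded libraries held 3 such nuclei in all.

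**Figure D5:**
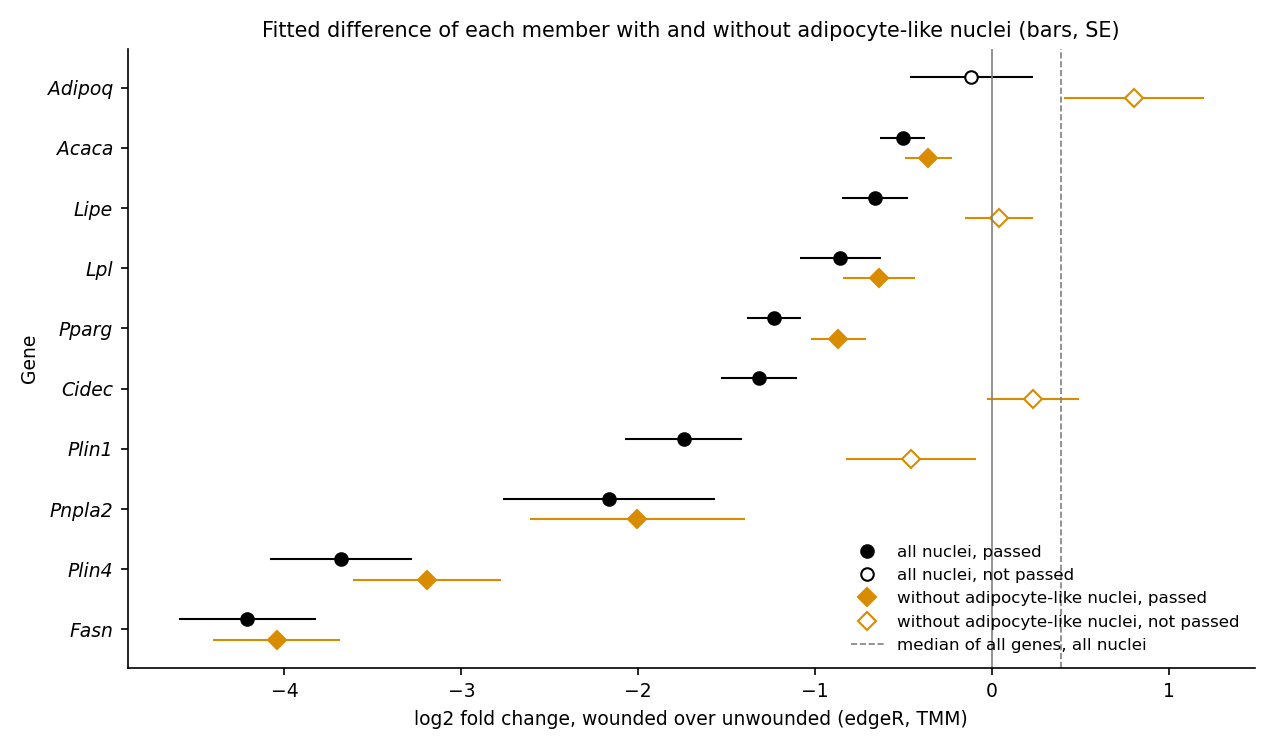
Log2 fold change, wounded over unwounded, of each gene with SE bars, over all nuclei (black circles) and without adipocyte-like nuclei (orange diamonds); filled symbols passed the test, and the dashed line is the median of all genes, 0.39. Fasn, Plin4 and Pnpla2 stay low in both fits, while Plin1 lies at -1.74 and -0.46 and Cidec at -1.32 and 0.23.

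Wounded nuclei were also clustered alone, a step chosen after the data were seen. A fibroblast-like cluster (cluster 3), led by Tnfaip6, held 370 and 754 nuclei of wounded replicates 1 and 2. Lpl had 477 CPM there in replicate 1 and 121 CPM in replicate 2, or 32.2 and 8.82 times the length-expected level. The cluster held 44.7% and 22.7% of all Lpl UMIs of the 2 libraries, and 12.5% and 19.6% of their UMIs. Cidec had 16 counts there in replicate 1 (108 CPM) and 4 in replicate 2 (15.1 CPM), so the libraries differed. Adipocyte markers summed to 1499 and 928 CPM in this cluster, with 3 and 5 of 15 at 0, and to between 575 and 879 CPM in the other 8 clusters, and their part in the Lpl and Cidec values was not tested. An unnamed cluster whose leading genes include Cd300lf had 186 and 142 CPM of Lpl. Lipe was spread over the wounded clusters, with 33.6 and 41.6 CPM in the fibroblast-like one and 93.0 and 79.6 CPM in the Cd300lf cluster. Fasn had at most 3 counts in any wounded cluster of either library.

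Other genes of fat handling mostly fell as well. Of 98 genes in 8 pathway lists, 92 were tested, 68 (73.9%) fell, 9 (9.78%) rose and 15 were not called, with a median log2 fold change of -1.39 beside 0.39 for all genes. Over all genes tested 37.3% fell and 46.9% rose, the shares to set beside each list count. Of these 98 genes 9 also served as adipocyte markers. Only Cebpb, a transcription factor of early fat cell formation that also acts in inflammation, passed the 99th percentile of the silent set in wounded replicates 1 and 2, at 28.5 and 69.5 times its length-expected level, and it is named for that reason. Cebpb is shorter than the 5 kb minimum of that set, so it was set against longer genes only. It had 23.5 and 53.3 CPM in wounds, against 33.4 and 58.5 CPM in unwounded skin, which overlapped. The fit called Cebpb lower, at a log2 fold change of -1.03 (edgeR, adjusted p = 0.0230).

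In fatty acid synthesis 12 of 13 genes fell, where 37.3% of all genes fell, with a median log2 fold change of -2.67. Acacb, the mitochondrial acetyl-CoA carboxylase, had 103 and 95.5 CPM in wounds, against 392.3 and 377 CPM in unwounded skin (-2.74 ± 0.14). Elovl6, an elongase, had 83.2 and 65.9 CPM in wounds, against 264 and 282 CPM in unwounded skin (-2.67). The elongase Elovl5 had 32.8 and 37.8 CPM in wounds, against 101 and 111 CPM in unwounded skin (-2.37), and the desaturase Scd2 had 7.57 and 11.1 CPM in wounds, against 42.5 and 48.0 CPM in unwounded skin (-3.04), all 4 with edgeR adjusted p of 2.07e-06 or less. In the list of lipid droplet coat and regulators 7 of 11 fell and 3 rose. After subtraction of length-expected counts, however, 3 of 10 fell and 3 rose, and after thinning 2 of 7 fell and 2 rose. Over all genes 6637 of 16383 fell and 5398 rose after subtraction, and 5051 of 16444 fell and 8296 rose after thinning. Cavin1, a caveolar coat protein abundant in fat cells, had 7.57 and 10.4 CPM in wounds, against 63.2 and 74.7 CPM in unwounded skin (log2 fold change -3.71 ± 0.26, adjusted p = 4.1e-07). Cav1, a caveolar protein, had 25.2 and 37.0 CPM in wounds, against 54.4 and 44.9 CPM in unwounded skin (-1.45). Abhd5, the activator of Pnpla2, had 16.0 and 29.6 CPM in wounds, against 36.6 and 31.7 CPM in unwounded skin (-1.35). Cideb rose, with 9 and 7 counts in wounds, or 3.12 and 2.31 times its length-expected level, against 2 and 0 counts in unwounded skin, and a CPM ratio of 46.5 (95% interval 10.9 to 416).

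Of the list for lipolysis and its hormonal control 7 of 13 fell and 3 rose, where 37.3% of all genes fell and 46.9% rose. Irs1, an adaptor of the insulin receptor, had 39.5 and 24.4 CPM in wounds, against 306 and 237 CPM in unwounded skin (log2 fold change -3.88 ± 0.21, edgeR, adjusted p = 8.57e-08). Mgll, the monoglyceride lipase, had 152 and 210 CPM in wounds, against 457 and 465 CPM in unwounded skin (-2.13). The insulin receptor Insr had 122 and 172 CPM in wounds, against 368 and 315 CPM in unwounded skin (-1.99), and the phosphodiesterase Pde3b had 72.3 and 66.6 CPM in wounds, against 90.3 and 81.2 CPM in unwounded skin (-1.09). For uptake and activation 9 of 12 fell and 3 were not called. The fatty acid transporter Slc27a1 had 26.9 and 23.7 CPM in wounds, against 128 and 114 CPM in unwounded skin (-3.05 ± 0.17, adjusted p = 1.07e-07), and the lipid carrier Fabp4 had 3 and 6 counts in wounds, against 185 and 217 in unwounded skin (-3.75). The acyl-CoA synthetase Acsl5 had 22.7 and 29.6 CPM in wounds, against 57.3 and 56.8 CPM in unwounded skin (-1.90), and Acsl4 had 39.5 and 31.1 CPM in wounds, against 69.2 and 57.6 CPM in unwounded skin (-1.64). In triglyceride synthesis 9 of 12 fell and 2 rose. Dgat1, which adds the last acyl chain of triglyceride, had 12.6 and 30.4 CPM in wounds, against 43.5 and 56.7 CPM in unwounded skin (-1.98). Of the acyltransferases of earlier steps, Gpat4 had 21.9 and 25.2 CPM in wounds, against 45.9 and 34.9 CPM in unwounded skin (-1.56), and Agpat3 had 51.3 and 51.1 CPM in wounds, against 78.2 and 57.3 CPM in unwounded skin (-1.19). Mogat2 rose, with 16 and 11 counts in wounds, at 1.25 and 0.818 times its length-expected level, against 0 and 1 counts in unwounded skin.

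Of the adipocyte transcription factors 10 of 11 fell, where 37.3% of all genes fell. Ebf1 had 528 and 525 CPM in wounds, against 2025 and 1993 CPM in unwounded skin (log2 fold change -2.72 ± 0.14, edgeR, adjusted p = 6.76e-08). Rxra, the partner of Pparg, had 19.3 and 22.2 CPM in wounds, against 60.8 and 64.1 CPM in unwounded skin (-2.37). Zbtb16 had 188 and 212 CPM in wounds, against 523 and 332 CPM in unwounded skin (-1.87). Zfp423 (-0.78) was also called lower, although the CPM of Zfp423 overlapped between groups at 129 and 141 in wounds and 139 and 130 in unwounded skin. Among adipokines and their receptors 6 of 8 fell. Cfd, the fat cell protease adipsin, had no count in wounds, against 118 and 79 in unwounded skin, at least 11.3-fold lower with a floor of 3 counts over the wounded group. Nampt had 19.3 and 18.5 CPM in wounds, against 102 and 88.6 CPM in unwounded skin (-3.11), and the adiponectin receptor Adipor1 had 16.8 and 22.2 CPM in wounds, against 29.8 in each unwounded library (-1.39). The adiponectin-binding cadherin Cdh13 was called lower (-0.88), at 808 and 788 CPM in wounds, against 892 and 809 CPM in unwounded skin. For fatty acid oxidation 8 of 12 fell and 1 rose. The acyl-CoA dehydrogenase Acadl had 21.0 and 21.5 CPM in wounds, against 54.98 and 39.1 CPM in unwounded skin (-1.93), and Acadm had 31.1 and 29.6 CPM in wounds, against 51.6 and 68.3 CPM in unwounded skin (-1.77). Ucp1, the uncoupling protein of brown fat, rose, with 9 and 13 counts in wounds, at 1.70 and 2.33 times its length-expected level, against 1 and 0 counts in unwounded skin. Cideb, Mogat2 and Ucp1 passed the filter on low counts only through their wounded counts, so a rise was the only call open to them. Cfd and Fabp4 passed it only through their unwounded counts, so a fall was the only call open to that pair.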

How the data were processed

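Single-nucleus RNA libraries of 2 wounded and 2 unwounded back skins were used, 1 per mouse. The authors deposited unnormalized UMI counts, by gene and barcode. The submitters' processing notes name Cell Ranger 5.0.1 and GRCm38. Annotation release, intron counting and barcode calling: not given in the sources used here. Deposited barcodes numbered 4635 and 18026 for wounded and 6965 and 9840 for unwounded replicates 1 and 2. Nuclei were kept from 200 detected genes upwards if mitochondrial transcripts made up no more than 5%. Scrublet's automatic threshold marked 11, 0, 0 and 0 nuclei, so the highest scores were removed in proportion to the deposited barcodes (88, 624, 388 and 769). Between any pair of libraries, 3 to 27 of the kept barcodes had the same sequence. Median depth was 360 and 303 UMIs per wounded nucleus and 907 and 469 per unwounded nucleus. A count of 0 allowed up to 2.52 and 2.22 CPM in wounded and 0.363 and 0.463 CPM in unwounded libraries (3 counts), and these floors and all intervals cover counting error only.

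Counts were summed per library and fitted with edgeR 4.0.16 (R 4.3.3; filterByExpr, TMM factors of 1.33 and 1.32 in wounded and 0.782 and 0.731 in unwounded libraries, glmQLFit, glmQLFTest), with DESeq2 1.42.0 as an alternative. SE is the size of the log2 fold change over the square root of its F statistic. With 2 mice per group, both values are printed. On simulated data with the library sizes of this comparison, with 21152 genes tested, 84% of 4-fold and 22% of 2-fold changes were recovered. Each change was given to 100 genes at a preset dispersion, and no other gene differed, whereas 84.2% of genes were called here. Those rates therefore need not hold for these libraries. Length-expected subtraction took receptor-gene density times gene length off each library and set values below 0 to 0. A gene under its length-expected level in wounds, such as Fasn, thus has a fold change set by that step. Clusters were made jointly with scanpy 1.11.5 (2000 variable genes, 30 components, 15 neighbours, Leiden resolution 1) without the 10 genes and the lists. They were named from markers at least 2-fold raised, by a rule set after the clusters were seen. The 3 clusters of mostly wounded nuclei (0, 1 and 3) were left unnamed whatever their markers. In clusters 0 and 1, 7 of 8 blood endothelium markers were raised. Clusters 4, 6, 7, 10 and 12, of mostly unwounded nuclei, stayed unnamed under the rule. Gene spans come from GENCODE vM21. The 10 genes, the lists and the markers were chosen with earlier results of these data known. Named genes are the 10, up to 4 of smallest p per list, and the 5 with the most similar profiles; some genes that meet this rule are not reported here.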

Additional observations from a re-analysis of the deposited data

How the results depend on the processing

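Fasn, Plin4 and Pparg fell in every one of 14 alternative fits over all nuclei, though a fall was the only call open to Fasn and Plin4 in the reported fit. Of the 10 genes, 9 were called in the reported fit, 4 after thinning to the smallest library (8 tested; 81.2% of all genes called) and 4 after subtraction of length-expected counts (73.5% of all genes), and 6 to 8 when 1 library was left out; in the other alternatives 6 to 9 were called. Without adipocyte-like nuclei 6 were called, 4 to 6 of them lower in the alternatives that kept all libraries, and 3 to 5 when 1 library was left out. The lowest, 3, came without wounded replicate 2. Where a group had a single library left, that library was assumed to vary like the others.

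Over all nuclei Adipoq, never called, turned sign with RLE factors (log2 fold change 0.12), DESeq2 (0.06), all deposited barcodes (0.026), subtraction (0.45) and without wounded replicate 2 (0.38; range with 1 library left out -0.28 to 0.38). Lipe and Lpl turned sign after subtraction (0.59 and 0.54) and Acaca after thinning (0.12). Without adipocyte-like nuclei Plin1 turned without wounded replicate 2 (range -0.99 to 0.19), and Cidec (-0.018 to 0.64) and Lipe (-0.14 to 0.29) without unwounded replicate 1. None of these was called, and the cause was not tested. Among all calls 55.7% were rises, but 66.0% in DESeq2 and 44.9% once length-expected counts were taken off. The all-gene median of 0.39 became 0.63 (RLE), 1.94 (DESeq2) and -0.56 (subtraction). Of the 92 pathway list genes tested 77 were called, where 84.2% of all genes were called, so the count called is no result about the lists. In the alternatives that kept all libraries 55 (thinning) to 80 (no filter on low counts) were called. The shares of all genes called there were 81.2% and 75.6%. List genes were lower for 45 and higher for 10 after thinning, and lower for 53 and higher for 9 after subtraction. Over all genes 5051 of 16444 fell after thinning and 6637 of 16383 after subtraction. After subtraction the adipocyte transcription factors had the lowest list median, -4.67, against -3.10 for fatty acid synthesis. Values below 0 were set to 0 in that step. In wounds this applied to Rxra, at 0.406 and 0.504 times its length-expected level, and to Zfp423, at 0.785 and 0.927 times. Fold changes of such genes are set by that step, so these medians give no order of the lists.

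The mean adipocyte-like share, 0.0570% of wounded and 3.56% of unwounded nuclei, became 0.862% and 5.02% when a nucleus needed 3 adipocyte markers (1.48% and 0.243% in wounded and 6.42% and 3.62% in unwounded replicates 1 and 2), 0% in wounds with at least 400 genes per nucleus, and 1.87% and 4.15% in unwounded skin at Leiden resolutions 0.5 and 2.

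Deviations of same-numbered libraries correlated at 0.0434. With so few libraries per group this is a single value, which cannot decide whether replicate numbers pair the mice. With a replicate block 9 of 10 genes and 17579 genes in all were called, and 6 of 10 without adipocyte-like nuclei. No fit within adipocyte-like nuclei was possible, as 3 wounded nuclei remained, so leaving out libraries there was not run. Wounded counts of 1 to 8 for Fasn, Plin4 and Pnpla2 limit their levels.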
